A study of Mus musculus with 31 samples.

Results

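Skin of female cpdm mice was compared with skin of female wild type mice at 10 weeks of age, when the dermatitis of the mutant is established. The comparison held the 3 arrays titled as cpdm and the 3 titled as wild type at this age, 6 of the 31 arrays of the series, and was made over 19938 genes with 1 probe set each. The cpdm mice are labelled C57BL/KaLawRij-Sharpincpdm/Sharpincpdm RijSunJ, that is, both copies of Sharpin carry the spontaneous cpdm mutation. The wild type mice are C57BL/6J, a different substrain, so differences that come from Sharpin and from the substrain cannot be told apart. No group received an agent, and the other 25 arrays (ages 2, 4, 6 and 8 weeks) entered the fit for the spread and for the comparisons with earlier ages. The design counts as many mice as samples, so the arrays of a group are separate mice. The title of the series asks about the growth of blood vessels in this disease.

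Sharpin, Rnf31 (HOIP) and Rbck1 (HOIL-1) form the linear ubiquitin chain assembly complex (LUBAC), which attaches linear ubiquitin chains to proteins at the TNF receptor and related receptors. These chains sustain signalling to the transcription factor NF-kB and hold back the death of the cell by caspase 8 or by the kinase Ripk3. Without Sharpin, keratinocytes die, and the mice develop chronic proliferative dermatitis, known for a thickened, scaling epidermis and an infiltrate rich in eosinophils.

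Values are log2 signal. Differences are cpdm minus wild type with the standard error (SE) of a limma fit, n was 3 and 3 arrays throughout, and a gene was called at a Benjamini-Hochberg adjusted p below 0.05 over all 19938 genes. Sharpin signal was 7.58, 7.35 and 7.50 in cpdm skin and 8.22, 8.15 and 8.13 in wild type skin, lower in every array labelled cpdm than in any labelled wild type. Its difference was -0.69 ± 0.09 (limma, adjusted p = 1.53e-06). Of 12 widely used control genes 4 rose and 1 fell, by at most 0.71 on the log2 scale. Called members made up 41.7% of these controls, more than the 32.6% among all genes. Mean control signal did not overlap at 10 weeks: the lowest cpdm value was 10.44 and the highest wild type value 10.31. The controls were therefore not level between the genotypes. Within a group, the correlation of 2 arrays over all genes (not independent points) was 0.992 to 0.996, and between the groups it was at most 0.962. The basal keratinocyte keratins Krt5 and Krt14 were bright in all 6 arrays, with signals of 12.09 or more and 11.32 or more. Wild type replicate 2 stood apart from the other wild type arrays for macrophage genes, with a mean macrophage signal of 8.07 against 9.06 and 8.78, within the range of the cpdm arrays.

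At 10 weeks 6502 genes differed between the genotypes, 32.6% of those tested. In cpdm skin 2913 genes (14.6%) rose and 3589 (18.0%) fell; these shares are the background for the counts in the gene groups below. Of the called genes, 598 rose and 641 fell by at least 2-fold, and 170 rose and 78 fell by at least 4-fold. The median difference of all genes was -0.04. When each array was centred on its median, 3541 genes were higher and 2894 lower, so the balance of directions among small differences depends on the centring. The arrays of the groups did not overlap for 47.0% of all genes (20.7% with cpdm above, 26.2% with cpdm below).

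Signal of skeletal muscle and of growing hair differed between the genotypes at 10 weeks. The mean signal of 30 skeletal muscle genes was 8.83, 9.38 and 9.13 in cpdm skin and 10.73, 10.92 and 10.86 in wild type skin. The mean of 32 hair keratin genes was 9.86, 9.09 and 8.78 against 6.04, 5.78 and 5.89. Neither overlapped between the groups. With the muscle mean as a covariate, 2051 genes were called (1286 higher, 765 lower, and 1013 of the 6502 in the same direction). With the hair keratin mean as a covariate, which was chosen after the data had been examined, 3407 were called (1794 higher, 1613 lower, 2733 shared). Skin was profiled whole, and fewer cells of a type and less RNA per cell cannot be told apart. Counts and medians with these covariates are given below beside the gene groups; a count can fall while the median stays or grows.

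The 15 largest rises held genes of the stressed epidermis and of the hair follicle. Chil4, a chitinase-like protein induced in type 2 inflammation, rose most, from 4.31, 5.41 and 4.35 in wild type to 9.87, 10.79 and 11.85 in cpdm skin, a 70.8-fold difference (6.15 ± 0.44, adjusted p = 1.97e-10). Stfa3, a stefin that inhibits cysteine proteases, rose 70.0-fold (6.13 ± 0.43). Krt16, a keratin of wounded and hyperproliferative epidermis, rose 52.6-fold and its partner Krt6b 48.7-fold. Sprr1b, a precursor of the cornified envelope, rose 43.9-fold, Gsdmc, a gasdermin of keratinocytes, 35.6-fold, and Gjb2, the gap junction protein connexin 26, 27.3-fold. The other 8 of the 15 were Prr9 and genes of the growing hair shaft and its inner root sheath, Krt25, Krt27, Krt71, Krtap15, Krtap11-1, Krt26 and Tchh, and they rose 25.3-fold to 42.5-fold.

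The 15 largest falls came from several tissues. Mstn, myostatin of skeletal muscle, was 9.15, 9.66 and 9.78 in wild type and 4.96, 4.63 and 4.49 in cpdm skin, 28.6-fold lower (-4.84 ± 0.43, adjusted p = 8.34e-09). Myh4, Actn3, Mylk4 and Pvalb, genes of fast muscle fibres, fell 9.69-fold to 14.7-fold. The lipid enzyme gene Scd3, of sebaceous glands, fell 13.9-fold and the cytochrome Cyp2g1 15.2-fold. Cd209f and Cd209g, lectin receptors of resident macrophages, fell 13.0-fold and 10.3-fold and the lysozyme Lyz1 10.0-fold. For Cd209f, Cd209g and Lyz1, wild type replicate 2 (9.17, 7.68 and 11.3) lay well below the other wild type arrays yet above every cpdm array. The others were Serpina3b (17.5-fold), Mrgprb3 (12.3-fold), Serpinb6e (11.8-fold), Skint10 (10.2-fold) and Inmt (9.83-fold).

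**Figure D1:**
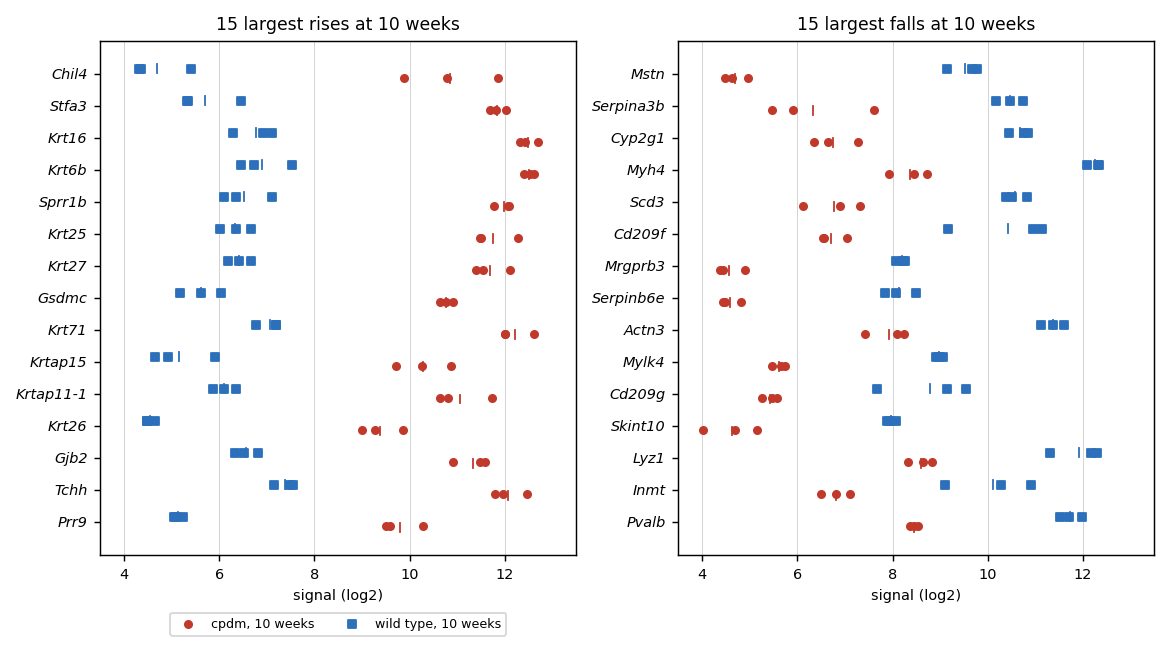
Log2 signal (horizontal axis) of the 15 genes with the largest rise (left) and the 15 with the largest fall (right) at 10 weeks. Each point is 1 array (circles, 3 cpdm; squares, 3 wild type) and the short vertical lines are the group means. No cpdm array overlaps a wild type array for any of the 30 genes, as the choice of the genes required.

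Genes of the stressed and overgrowing epidermis rose nearly without exception. Of 28 measured members, 26 rose and 0 fell, against 14.6% and 18.0% of all genes, with a median difference of 2.76. For Sprr2e, a small proline-rich protein of the cornified envelope, signal was 7.89, 7.33 and 8.29 in cpdm and 3.82, 4.25 and 3.79 in wild type skin (3.88 ± 0.20, adjusted p = 8.23e-13). The kallikrein protease Klk6 rose by 4.02 ± 0.23, Sprr2d by 3.83 ± 0.23 and S100a9, a subunit of the antimicrobial calprotectin, by 4.50 ± 0.30. Gsdmc4 (0.10) and Hmox1 (-0.20) were the members that did not pass. The count was 26 without any 1 array of 10 weeks, 20 with the muscle covariate (median 2.42) and 25 with the hair keratin covariate (median 2.81).

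The terminal differentiation programme changed in both directions. Of 28 genes of the cornified envelope and of suprabasal layers, 15 rose and 4 fell, with a median difference of 0.64. Rptn (repetin), an envelope precursor, was 10.12, 10.41 and 10.35 in cpdm and 5.52, 6.08 and 6.23 in wild type skin (4.35 ± 0.19, adjusted p = 2.79e-14). Lce3c, a late envelope protein known from repairing skin, rose by 4.57 ± 0.25, Casp14, a caspase of cornification, by 2.31 ± 0.13, and the filaggrin-like Hrnr by 1.62 ± 0.15. The members that fell were the suprabasal keratins Krt10 (-0.99 ± 0.24), Krt77 (-1.50 ± 0.37) and Krt78 (-1.53 ± 0.28), and Flg2 (-1.47 ± 0.34). Krt10 was 11.51, 12.10 and 10.82 in cpdm and 12.45, 12.49 and 12.47 in wild type skin, so the cpdm mice varied more but did not overlap with wild type. Its usual partner Krt1 rose (1.43 ± 0.29, adjusted p = 0.000559). Under the muscle covariate, 18 members of this list rose and 0 fell (median 1.21), and with the hair keratin covariate 18 rose and 1 fell (median 0.92).

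In the basal layer 6 of 15 genes rose and 3 fell. Krt14 rose by 1.32 ± 0.14 and Krt5 by 0.48 ± 0.08. Krt15, a keratin of quiescent basal and follicle stem cells, went the other way: it was 9.13, 9.11 and 8.52 in cpdm and 11.68, 11.79 and 11.77 in wild type skin (-2.83 ± 0.19, adjusted p = 1.03e-10). The integrin Itga3 (1.0 ± 0.15) and P-cadherin Cdh3 (1.28 ± 0.25) rose. The basal counts were 5 and 2 with the muscle and 6 and 2 with the hair keratin covariate. Of 22 genes that make or transport the lipids of the epidermal barrier, 14 rose and 0 fell (median 0.65). Degs2, which makes phytoceramides, rose by 2.51 ± 0.20, the ceramide synthase Cers3 by 1.59 ± 0.19 and the glucosylceramide synthase Ugcg by 1.15 ± 0.11. The barrier count was 17 with the muscle (median 1.16) and 16 with the hair keratin covariate (median 0.75).

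All 29 measured cell cycle genes rose (median 1.03; 26 to 29 without any 1 array), and the arrays of the groups did not overlap for any of them. Hells, a chromatin remodeller of dividing cells, was 7.15, 6.98 and 7.0 in cpdm and 5.28, 5.61 and 5.32 in wild type skin (1.64 ± 0.26, adjusted p = 3.82e-05). The ribonucleotide reductase subunit Rrm2 rose by 1.23 ± 0.21, the replication helicase subunit Mcm3 by 1.19 and Cdc20, an activator of mitotic exit, by 1.0 ± 0.17. After the muscle adjustment, 0 of the 29 were called, with a median of 0.42, and with the hair keratin covariate 12 were (median 0.75). The hair keratin and muscle signals thus moved with this difference, and their part in it was not tested. Promoters of the list were searched for CCAAT, the box bound by NF-Y, on either strand in the 250 bases before the RefSeq start (GRCm38.p6). A match was present in 19 of the 24 members with a promoter in the table (79.2%) and in 37.5% of all 27025 genes with one. Mki67, the proliferation antigen Ki-67, is shown because it rose (1.39 ± 0.33) and holds 3 matches, in capitals; the stretch is chr7:135716380-135716629, minus strand.
Mki67: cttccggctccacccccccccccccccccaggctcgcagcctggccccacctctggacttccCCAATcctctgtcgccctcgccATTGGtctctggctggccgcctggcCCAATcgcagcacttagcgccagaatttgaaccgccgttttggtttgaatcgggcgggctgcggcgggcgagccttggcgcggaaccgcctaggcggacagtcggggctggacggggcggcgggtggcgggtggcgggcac

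**Figure D2:**
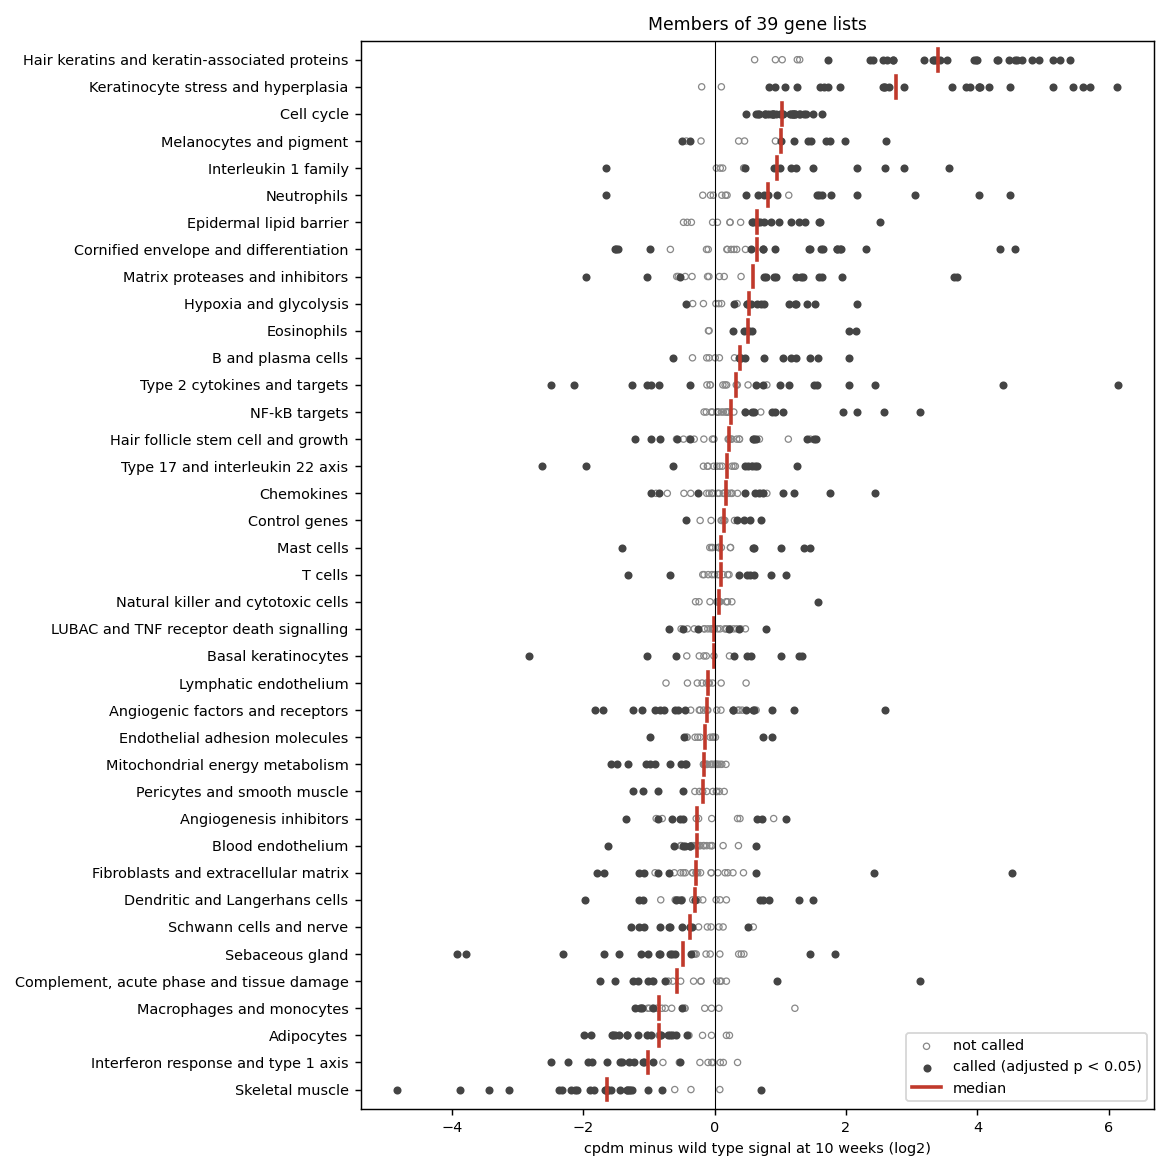
Difference of every measured member (circles) of 39 gene lists, in log2 signal between the genotypes (cpdm minus wild type) at 10 weeks (horizontal axis), with lists ordered by their median (vertical bars). Filled circles are genes called at an adjusted p below 0.05. Hair keratins and keratinocyte stress genes lie far to the right, with medians of 3.41 and 2.76, and skeletal muscle and interferon response genes to the left, with medians of -1.65 and -1.01.

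Most members of the LUBAC and of the TNF receptor pathway to cell death were not called, as was true of most genes. Of 27 genes, 3 rose and 3 fell, with a median of -0.01, and centring called 7 rises. The share called was 22.2%, against 32.6% of all genes. The 3 that fell were Sharpin, its partner Rnf31 (-0.26 ± 0.09) and Cyld (-0.48 ± 0.13), the enzyme that removes linear chains. Ripk3, the kinase of necroptosis, was 7.57, 7.32 and 7.64 in cpdm and 6.79, 6.52 and 6.87 in wild type skin (0.78 ± 0.21, adjusted p = 0.00609). The adaptor Tradd rose by 0.36 ± 0.08 and the kinase Map3k7 by 0.22 ± 0.08. The third LUBAC subunit Rbck1 (-0.11, adjusted p = 0.322), Tnf (0.39, adjusted p = 0.086), Casp8 (0.33) and Tnfaip3 (0.47) were not called. The Rnf31 call ended without any 1 array and with centred arrays, and that of Map3k7 when any array except cpdm replicate 2 was left out. The muscle covariate left 1 rise and 2 falls (median 0.09), and the hair keratin covariate gave 5 rises and 1 fall (median 0.10).

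NF-kB target genes rose in part. Of 26 genes, 10 rose and 0 fell (median 0.25). Saa3, an acute phase protein, was 7.04, 8.04 and 8.82 in cpdm and 5.21, 4.88 and 4.43 in wild type skin (3.13 ± 0.48, adjusted p = 2.58e-05). The iron-binding lipocalin Lcn2 rose by 2.58 ± 0.28, Il1b by 2.16 ± 0.42, the prostaglandin synthase Ptgs2 by 1.95 ± 0.30, and the NF-kB proteins Bcl3, Nfkb2 and Nfkbiz by 0.91, 0.60 and 0.57. The inhibitor Nfkbia (0.10), Icam1 (-0.04), Ccl2 (0.20), Cxcl1 (0.04) and Il6 (0.29), all textbook targets, were not called. The neutrophil attractant Cxcl2 was 5.60, 4.56 and 5.0 in cpdm and 4.01, 3.88 and 4.16 in wild type skin (1.04 ± 0.29), and its call ended without cpdm replicate 1 (adjusted p = 0.0664). In the fit with the muscle covariate, 6 of the 26 rose, with a median of 0.48, and with the hair keratin covariate 11 rose, with a median of 0.50. The kB consensus, searched on either strand over the same 250 bases, was found in 11 of the 20 members with a promoter (8.23% of all genes), in 3 of the 8 that were called and in 8 of the 12 that were not. The Cxcl2 promoter is shown with its overlapping matches in capitals (chr5:90903649-90903898, plus strand).
Cxcl2: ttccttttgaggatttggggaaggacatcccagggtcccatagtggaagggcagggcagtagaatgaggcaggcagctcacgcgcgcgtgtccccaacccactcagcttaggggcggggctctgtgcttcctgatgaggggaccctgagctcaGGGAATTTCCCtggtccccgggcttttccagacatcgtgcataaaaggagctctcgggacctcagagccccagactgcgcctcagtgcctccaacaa

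Interleukin 1 family genes rose. Of 16 genes, 10 rose and 1 fell (median 0.95), against 14.6% and 18.0% of all genes. Il1f8, Il1f6 and Il1f9 encode the IL-36 cytokines, which keratinocytes release and which act on them in turn. Il1f8 was 8.35, 8.62 and 8.49 in cpdm and 4.97, 4.82 and 4.97 in wild type skin (3.57 ± 0.19, adjusted p = 9.23e-13). Il1f6 rose by 2.89 ± 0.16 and Il1f9 by 2.59 ± 0.31. Their shared receptor Il1rl2 rose by 0.45 and their antagonist Il1f5 by 1.15 ± 0.17. Il1a, the alarmin of keratinocytes, rose by 1.50 ± 0.14, its antagonist Il1rn by 0.91 ± 0.13, and Il18rap, a subunit of the IL-18 receptor, by 1.23 ± 0.17. Il1r2, a decoy receptor that binds interleukin 1 without signalling, was the member that fell, from 10.33, 10.14 and 10.04 in wild type to 8.32, 8.67 and 8.55 in cpdm skin (-1.66 ± 0.30, adjusted p = 0.000167). Il33, the alarmin of type 2 inflammation, rose by 0.99 ± 0.34, and its call ended without cpdm replicate 3, wild type replicate 1 or wild type replicate 2 (adjusted p up to 0.111). The family counted 11 rises and 0 falls with the muscle covariate (median 1.45), and 13 and 2 with the hair keratin covariate (median 1.21).

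Type 2 genes changed in both directions, with 10 of 27 higher and 7 lower (median 0.33, and 0.20 without wild type replicate 3). Chil3, a second chitinase-like protein, was 6.34, 8.12 and 7.52 in cpdm and 3.27, 2.84 and 2.68 in wild type skin (4.40 ± 0.38, adjusted p = 4.92e-09). The T cell attractant Ccl17 rose by 2.44 ± 0.26, the lipoxygenase Alox15 by 2.04 ± 0.25, and the keratinocyte cytokine Tslp by 1.52 ± 0.32 together with a subunit of its receptor, Il7r (1.56 ± 0.23). Il4ra, the receptor subunit for IL-4 and IL-13, rose by 1.14 ± 0.29. The cytokine genes themselves lay low on the scale and were not called: Il4 was 5.04 to 5.15 against 4.91 to 4.95, and Il13 5.73 to 5.87 against 5.58 to 5.74.
The genes that fell were Retnla, a resistin-like product of alternatively activated macrophages and fat, from 11.56, 10.81 and 11.20 to 8.37, 8.83 and 8.87 (-2.50 ± 0.40), and Il31ra, an itch cytokine receptor (-2.15 ± 0.40). The others were the eotaxins Ccl11 (-0.97 ± 0.24) and Ccl24 (-0.85 ± 0.29), the chemokine receptor Ccr4 (-1.04 ± 0.21), Clec10a (-1.26 ± 0.42) and Gata3 (-0.38). The Ccl24 and Clec10a calls ended without cpdm replicate 1, wild type replicate 1 or wild type replicate 3, that of Ccl24 also without cpdm replicate 2, and the Gata3 call ended without cpdm replicate 2, cpdm replicate 3 or wild type replicate 2 and with centred arrays. Adjusted for the muscle mean, 11 were higher and 1 lower (median 0.56), and with the hair keratin covariate 13 and 3 (median 0.89).

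Of 20 genes of the type 17 and IL-22 axis, 6 rose and 3 fell (median 0.19). The largest difference was a fall. Il22ra2, a soluble receptor that binds and blocks IL-22, was 4.01, 4.79 and 3.97 in cpdm and 7.07, 7.16 and 6.43 in wild type skin (-2.63 ± 0.39, adjusted p = 1.36e-05), and the receptor subunits Il20ra and Il20rb fell by 1.97 and 0.64 on the log2 scale. Il24, a keratinocyte cytokine that signals through this receptor family, rose by 1.25 ± 0.20, Il23a by 0.65 ± 0.19 (its call ended without wild type replicate 1) and the transcription factor Stat3 by 0.61 ± 0.13. Il17a was 5.28, 5.42 and 5.60 in cpdm and 5.33, 5.40 and 5.62 in wild type skin (-0.02 ± 0.09, adjusted p = 0.92). Of 34 chemokines 8 rose and 3 fell (Ccl11, Ccl24 and Cxcl15), with a median of 0.17 (0.07 without cpdm replicate 1). The share of chemokines called was 32.4%, about that of all genes (32.6%). The Cxcl15 call (-0.26) ended when any of 4 arrays was left out (cpdm replicate 1 or 2, wild type replicate 2 or 3), and that of Ccl3 without cpdm replicate 1. Cxcl16 rose by 1.2 ± 0.16, Ccl3 by 1.75 ± 0.45 and Ccl1 by 0.68 ± 0.12. Without cpdm replicate 1, 5 chemokines rose and 1 fell, and 1 also fell without cpdm replicate 2 or wild type replicate 3. With the muscle covariate 4 genes of the type 17 axis rose and 0 fell, and 5 chemokines rose and 1 fell (medians 0.30 and 0.23). With the hair keratin covariate the counts were 5 and 2, and 9 and 0 (medians 0.32 and 0.36).

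Markers of granulocytes rose. Of 21 neutrophil genes 13 rose and 1 fell (median 0.81). Cxcr2, the receptor that draws neutrophils into tissue, was 6.35, 6.41 and 6.66 in cpdm and 3.49, 3.38 and 3.41 in wild type skin (3.05 ± 0.22, adjusted p = 3.38e-10). The fall was that of Il1r2, given above. S100a8, the other calprotectin subunit, rose by 4.02 ± 0.37, the lectin receptor Clec4d by 2.16 ± 0.26 and the collagenase Mmp8 by 1.64 ± 0.21. S100a8, S100a9 and Il1r2 are also made by keratinocytes, and Ly6g, a neutrophil surface marker, was not called (-0.02). Of 9 eosinophil genes 6 rose (median 0.51), but 4 to 5 rose when any 1 array of 10 weeks was left out. Rnase2a, an eosinophil ribonuclease, rose from 5.39, 4.79 and 5.39 to 6.65, 7.90 and 7.48 (2.15 ± 0.36), Il5ra by 0.56 ± 0.12 and Siglecf by 0.52 ± 0.12. Epx, the eosinophil peroxidase, lay at 4.24 to 4.62 in cpdm arrays, against 4.36 to 4.71 in the wild type, and was not called. Under the muscle covariate, 6 neutrophil and 3 eosinophil genes rose, with medians of 0.63 and 0.47, and with the hair keratin covariate 12 and 6, with medians of 0.89 and 0.57.

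Mast cell genes split. Of 15, 5 rose and 1 fell (median 0.10). Fcer1a, the chain of the IgE receptor that binds the antibody, was 4.63, 4.99 and 5.42 in cpdm and 3.57, 3.67 and 3.47 in wild type skin (1.44 ± 0.19, adjusted p = 4.33e-06). The histamine-forming enzyme Hdc rose by 1.35 ± 0.19. Mrgprb2, a receptor of connective tissue mast cells, fell by 1.42 on the log2 scale, and the protease Cpa3 was 8.09 to 8.63 against 8.25 to 8.44 and was not called (0.10). Without cpdm replicate 3, 3 members rose; with the muscle covariate 7 rose (median 0.59), and with the hair keratin covariate 8 (median 0.65). Kit, counted here, is also a melanocyte gene.

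B and plasma cell genes rose in 11 of 19 and fell in 1 (median 0.39), and 7 rose without wild type replicate 1. Jchain, which joins the chains of secreted IgA and IgM, was 5.48, 6.71 and 6.15 in cpdm and 4.06, 4.12 and 4.05 in wild type skin (2.04 ± 0.36, adjusted p = 0.000106). The B cell receptor genes Cd79a and Cd79b rose by 1.57 ± 0.25 and 1.16 ± 0.18, and the surface marker Ms4a1 by 1.44 ± 0.25. Of 18 T cell genes 6 rose and 2 fell (median 0.10, and 0.04 without wild type replicate 2). The activation markers Il2ra and Icos rose by 1.09 ± 0.18 and 0.86 ± 0.19, while the T cell receptor chains Cd3g and Cd3e were the 2 that fell. Cd3g was 6.51, 6.16 and 6.54 in cpdm and 7.50, 7.98 and 7.70 in wild type skin (-1.32 ± 0.27, adjusted p = 0.000575). Cd3e was 6.37, 6.13 and 6.1 against 6.79, 7.13 and 6.72. T cell rises numbered 3 without cpdm replicate 3, without wild type replicate 3, and with the replicate number as a block. Of 13 natural killer and cytotoxic genes Gzmc (1.57 ± 0.25) was called, and Ncr1 (0.03) was not; 2 rose without cpdm replicate 2. After the muscle adjustment, 3 B cell and 5 T cell genes rose, with medians of 0.30 and 0.17, and with the hair keratin covariate 6 and 6, with medians of 0.36 and 0.21.

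Interferon response genes fell. Of 22 genes, 13 fell and 0 rose, against 18.0% and 14.6% of all genes, and the median was -1.01. Irf7, the master factor of the type I interferon response, was 7.13, 7.01 and 7.33 in cpdm and 9.95, 8.21 and 10.02 in wild type skin (-2.24 ± 0.54, adjusted p = 0.0024). The antiviral genes Ifit3 (-2.49 ± 0.59), Oas2 (-1.88 ± 0.43) and Gbp3 (-1.44 ± 0.33) fell too. Usp18, which switches off the interferon receptor, was 6.27, 5.53 and 5.83 in cpdm against 7.29, 7.32 and 7.27 (-1.42 ± 0.31, adjusted p = 0.000931). For Ifit3, Irf7 and Oas2 the lowest wild type array was replicate 2, and it lay above every cpdm array. Ifng (0.13), Ifnb1 (0.08) and the interferon-gamma targets Cxcl9 (0.35) and Cxcl10 (-0.05) were not called, and Cxcl9 and Cxcl10 spread more widely among the cpdm mice than among the wild type. Without wild type replicate 3, 8 of the 22 fell. In the fit with the muscle covariate, 2 fell (median -1.22) and with the hair keratin covariate 1 (median -0.64).

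The interferon-stimulated response element, searched as GAAA, any 2 bases and GAAA again on either strand in the 250 bases before the start, was found in 7 of the 16 members with a promoter in the table (43.8%), and in 3.46% of all 27025 genes. It was in 6 of the 10 members that fell and in 1 of the 6 others. The list, which also holds cytokine and T cell genes such as Ifng and Tbx21, was written with earlier results known. This split therefore cannot test whether the element goes with the fall. A match is only a run of letters and does not show binding. The promoters of Ifit3, Ifit1 and Rsad2 are given because these genes fell and carry the element, in capitals, here as its reverse complement, TTTC on both sides of 2 bases. They lie at chr19:34583279-34583528 (plus strand), chr19:34640639-34640888 (plus strand) and chr12:26456453-26456702 (minus strand). The first bases of the matches lie 156 and 122 bases before the start of Ifit3, 104 and 85 before that of Ifit1, and 120 before that of Rsad2.
Ifit3: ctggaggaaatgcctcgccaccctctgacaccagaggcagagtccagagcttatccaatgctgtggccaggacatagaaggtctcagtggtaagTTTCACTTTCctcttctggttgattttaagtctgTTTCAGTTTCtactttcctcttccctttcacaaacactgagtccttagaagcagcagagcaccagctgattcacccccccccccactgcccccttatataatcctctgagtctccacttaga
Ifit1: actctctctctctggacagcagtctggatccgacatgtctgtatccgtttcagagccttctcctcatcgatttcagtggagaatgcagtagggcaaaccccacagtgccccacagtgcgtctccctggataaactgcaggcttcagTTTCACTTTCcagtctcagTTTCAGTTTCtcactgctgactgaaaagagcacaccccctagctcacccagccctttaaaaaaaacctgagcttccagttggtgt
Rsad2: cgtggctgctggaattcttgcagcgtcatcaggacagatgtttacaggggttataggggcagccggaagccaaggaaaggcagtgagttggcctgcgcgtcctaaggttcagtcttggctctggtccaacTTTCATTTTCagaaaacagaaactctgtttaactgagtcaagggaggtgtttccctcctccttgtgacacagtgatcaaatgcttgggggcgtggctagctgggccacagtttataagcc
Ifit1 was 5.18, 4.62 and 5.53 in cpdm and 6.73, 6.59 and 6.94 in wild type skin (-1.64 ± 0.47, adjusted p = 0.00829). Rsad2, the antiviral enzyme viperin, was 5.24, 5.20 and 5.53 against 6.83, 6.03 and 7.01 (-1.30 ± 0.41), and its call ended without wild type replicate 1 (adjusted p = 0.0585) or 3 (adjusted p = 0.0762).

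Macrophage genes had a median difference of -0.84, but how many passed depended on single arrays. Of 20 genes 5 fell and 0 rose, against 18.0% and 14.6% of all genes. Mertk, a receptor for the clearance of dying cells, was 7.78, 7.86 and 7.76 in cpdm and 9.06, 8.60 and 8.55 in wild type skin (-0.94 ± 0.14, adjusted p = 1.97e-05). The growth factor receptor Csf1r (-1.14 ± 0.31), the scavenger receptor Cd163 (-1.10 ± 0.34), C1qc (-1.22 ± 0.47) and Vsig4 (-0.50 ± 0.18) fell as well. The calls of Cd163, C1qc and Vsig4 ended without cpdm replicate 1 or wild type replicate 1, and those of C1qc and Vsig4 also without cpdm replicate 2 or wild type replicate 3 and with centred arrays. Csf1r was 10.65, 9.74 and 10.42 in wild type, with replicate 2 lowest, and 8.97, 9.27 and 9.16 in cpdm skin. Adgre1, the macrophage marker F4/80, was 9.68, 8.43 and 9.42 in wild type and 8.07, 8.46 and 8.35 in cpdm skin, so the groups overlapped through wild type replicate 2 (adjusted p = 0.115). Without wild type replicate 2, 9 members fell. Without cpdm replicate 1 or wild type replicate 1, 2 fell, without cpdm replicate 2 or wild type replicate 3, 3 fell, and with centred arrays, 3. A fit of the 6 arrays of 10 weeks alone called 12 falls and 1 rise, while the muscle covariate left 0 falls with a median of -0.82 and the hair keratin covariate 1 with a median of -0.39. The interferon genes share the low wild type replicate 2 with these markers, and the part of macrophage signal in their fall was not tested.

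**Figure D3:**
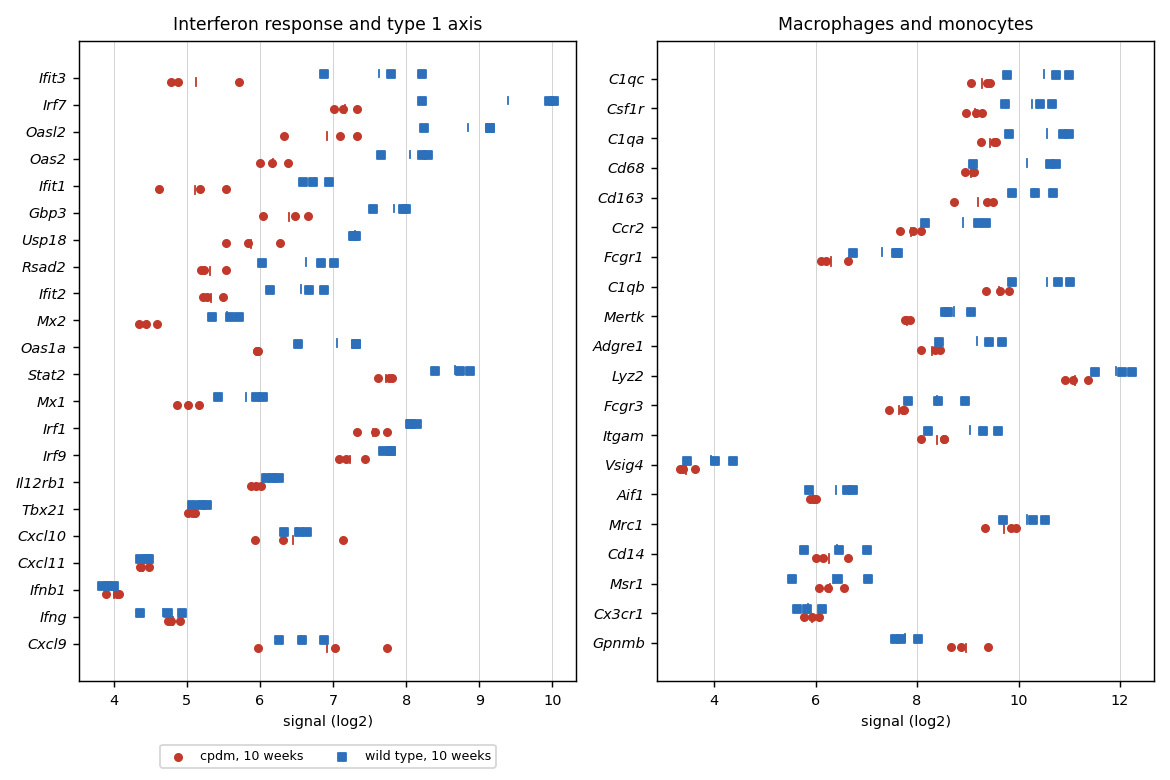
Log2 signal (horizontal axis) of the 22 interferon response genes (left) and 20 macrophage and monocyte genes (right), ordered by their difference; circles are the 3 cpdm and squares the 3 wild type arrays, and short lines are group means. Irf7, at 8.21 to 10.02 in wild type and 7.01 to 7.33 in cpdm skin, shows the wide wild type spread.

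Of 23 genes of dendritic and Langerhans cells, 5 rose and 6 fell (median -0.30). Fscn1, an actin bundler of mature dendritic cells, rose by 1.49 ± 0.16, the homing receptor Ccr7 by 0.82 ± 0.14 and the integrin Itgax by 1.29 ± 0.26. Cd209a, a lectin of resident dendritic cells, was 6.53, 7.13 and 6.88 in cpdm and 8.99, 9.06 and 8.44 in wild type skin (-1.98 ± 0.26, adjusted p = 2.62e-06), and Cd1d1 fell by 1.10 on the log2 scale. In a list of complement and acute phase genes 7 of 20 fell and 2 rose (Saa3 and Serpina3n), with a median of -0.58. Properdin Cfp (-1.75 ± 0.48), Orm1 (-1.52 ± 0.30), C4b (-1.24 ± 0.35) and C2 (-1.01 ± 0.19) fell, and 4 fell without cpdm replicate 1. Serpina3n lost its call when replicate 2 or 3 of either genotype was left out, and the dendritic falls numbered 12 in a fit of the 6 arrays alone. Adjusted for the muscle mean, 1 dendritic and 0 complement genes fell, with medians of 0.17 and 0.10, and with the hair keratin covariate 4 and 1, with medians of 0.08 and -0.06.

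Hair keratins and keratin-associated proteins, which are made while a hair grows, were higher in every cpdm array than in any wild type array for 32 of 32 measured genes (20.7% of all genes), and 27 of them were called (median 3.41). Without cpdm replicate 1, which had the highest hair keratin mean, 19 were called (median 3.08). Krt25, a keratin of the inner root sheath, was 12.27, 11.50 and 11.48 in cpdm and 6.66, 6.01 and 6.35 in wild type skin (5.41 ± 1.15, adjusted p = 0.000761). Krt31, a cortex keratin, was 9.71, 8.85 and 8.16 against 5.54, 5.24 and 5.91 (3.34 ± 0.92, adjusted p = 0.00662), and Krt35 rose by 3.18 ± 0.94, a call that ended without cpdm replicate 1. The members not called were Krt32, Krt34, Krt36, Krt84 and Krtap3-2, with differences of 0.61 to 1.29. Hair keratin signal varied widely between mice of the same age at 6 and 8 weeks, and this spread enters the standard errors. At 8 weeks the list mean was 7.50, 9.17 and 5.95 in cpdm and 5.86, 6.34 and 10.94 in wild type skin, and at 6 weeks it was 7.59, 6.26 and 6.21 against 10.21, 8.04, 11.01 and 10.01. The median difference was -3.26 at 6 weeks, -0.35 at 8 weeks and 3.41 at 10 weeks. The change of the difference from 6 to 10 weeks passed upward for 32 of 32 members, against 3.82% of all genes, and for 0 of 32 with either covariate. The hair keratin mean is made from these same genes, so it cannot test them. With the muscle covariate 0 rose and 6 fell at 10 weeks, with a median of -1.91.

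**Figure D4:**
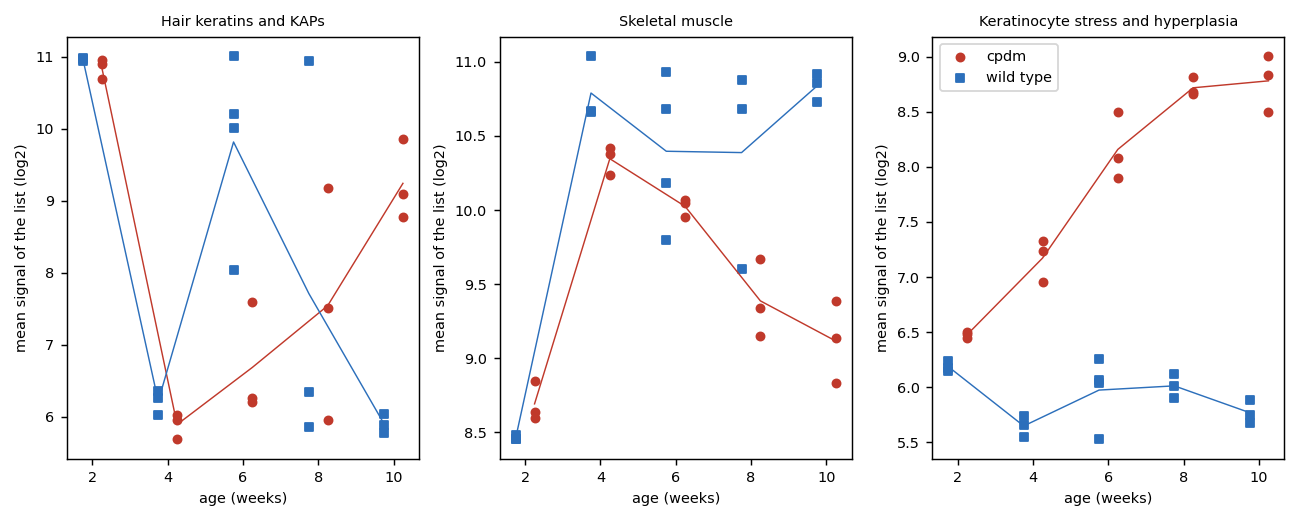
Mean log2 signal of 3 gene lists (vertical axes, not starting at 0) against age in weeks; each point is 1 array (circles, cpdm; squares, wild type) and lines join the group means. At 10 weeks the hair keratin mean lies at 8.78 to 9.86 in cpdm arrays and at 5.78 to 6.04 in those of wild type skin, the reverse of the order at 6 weeks, while keratinocyte stress genes lie higher in cpdm skin at each age and reach 8.50 to 9.01 at 10 weeks.

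Regulators of the follicle were called only somewhat more often than all genes, in both directions. Of 29 genes of follicle stem cells and hair growth, 6 rose and 5 fell, so 37.9% were called, against 32.6% of all genes. Foxn1, a factor that switches on hair keratins, was 7.74, 7.42 and 7.44 in cpdm and 5.89, 6.43 and 6.08 in wild type skin (1.40 ± 0.38, adjusted p = 0.00607), and Wnt10a rose by 0.63 ± 0.09. Bmp2, which holds follicles at rest, fell by 0.98 on the log2 scale, and Cd34, a marker of bulge stem cells and of vessels and fibroblasts, was 9.84, 10.14 and 10.00 against 11.23, 11.16 and 11.22 (-1.21 ± 0.22). Rises numbered 3 without cpdm replicate 1 or any 1 wild type array, and falls 3 without cpdm replicate 2, cpdm replicate 3 or wild type replicate 2. Under the muscle covariate, 3 rose and 7 fell (median -0.72, against 0.22 without a covariate), and with the hair keratin covariate 2 and 7 (median -0.37). Melanocyte genes rose in 8 of 15 and fell in 2 (median 1.0). Tyrp1, which makes black pigment, was 9.58, 8.50 and 8.38 in cpdm and 6.16, 6.23 and 6.25 in wild type skin (2.61 ± 0.72, adjusted p = 0.00679). The pigment enzyme Dct rose by 1.99 ± 0.61, and Mlana by 1.47, and both calls ended without cpdm replicate 1. The lineage factors Sox10 (-0.37) and Mitf (-0.50) were the 2 that fell, and the Mitf call ended with centred arrays and without cpdm replicate 2, cpdm replicate 3, wild type replicate 1 or wild type replicate 3. With the hair keratin covariate 0 of 15 rose (median 0.32), and with the muscle covariate 1 (median 0.20). Without cpdm replicate 1 the rises numbered 2, and without wild type replicate 1, 2 or 3 the counts were 4, 5 and 4; the falls numbered 1 when wild type replicate 1 or 3, or cpdm replicate 2 or 3, was left out.

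Skeletal muscle genes, which come from the muscle layer under the skin, fell. Of 30 skeletal muscle genes, 26 fell and 1 rose (median -1.65). Myh4, the fastest myosin, was 7.93, 8.73 and 8.46 in cpdm and 12.09, 12.34 and 12.32 in wild type skin (-3.88 ± 0.35, adjusted p = 9.58e-09). Creatine kinase Ckm fell by 1.85 on the log2 scale and actin Acta1 by 0.80, from 13.08, 13.12 and 13.12 to 12.10, 12.53 and 12.28. The member that rose was Myh7, the slow myosin, from 5.89, 5.53 and 5.74 to 5.94, 6.81 and 6.53 (0.71 ± 0.19, adjusted p = 0.00482). Myh2, a fast oxidative myosin, was not called (0.08), nor was myoglobin Mb (-0.36). Differences thus ran from -4.84 for Mstn to 0.71 for Myh7. The count of falls was 26 without any 1 array and 20 with the hair keratin covariate (median -0.79). The muscle covariate is the mean of these same genes, so it cannot test them; with it 9 were higher and 7 lower. Of 29 genes of mitochondrial energy metabolism 10 fell and 0 rose (median -0.16). Those with the lowest p were the muscle isoforms Cox7a1 (-1.48 ± 0.28), Cox6a2 (-1.33 ± 0.26) and Cox8b (-1.58 ± 0.33), the carrier Slc25a4 (-1.05 ± 0.19) and Nnt (-0.91 ± 0.18). With the muscle covariate 0 fell and 6 rose (median 0.27), and with the hair keratin covariate 3 fell and 0 rose (median -0.04).

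Fat and sebaceous genes fell as well. Of 26 adipocyte genes 18 fell and 0 rose (median -0.84), and 12 fell without cpdm replicate 1. The adipokine Adipoq was 7.39, 8.08 and 7.70 in cpdm and 9.50, 9.73 and 9.59 in wild type skin (-1.88 ± 0.36, adjusted p = 0.000278). Nnat fell by 1.99 on the log2 scale, the carbonic anhydrase Car3 by 1.57, and the lipase Lpl by 1.04. After the muscle adjustment, 6 adipocyte genes rose and 1 fell (median 0.46), and with the hair keratin covariate 2 rose and 6 fell (median -0.20); the part of the muscle and hair signals in the fall was not tested. Of 24 sebaceous gland genes 13 fell and 2 rose (median -0.49). The wax synthase Awat2 was 5.87, 6.64 and 6.62 in cpdm and 8.88, 8.57 and 8.60 in wild type skin (-2.31 ± 0.39), and the steroid enzyme Hsd3b6 fell by 1.69 on the log2 scale. The elongase Elovl3 (1.83 ± 0.23) and the cholesterol synthesis enzyme Sqle (1.45 ± 0.14) rose, the latter from 8.14, 8.55 and 8.44 to 9.82, 9.78 and 9.89. In the fit with the muscle covariate, 10 sebaceous genes rose and 2 fell (median 0.18), and with the hair keratin covariate 5 and 7 (median -0.22). Of 17 Schwann cell and nerve genes 10 fell and Ncmap rose (0.50 ± 0.15; median of the list -0.37). The myelin enzyme Cnp was 6.98, 7.28 and 7.0 in cpdm and 8.21, 8.08 and 8.21 in wild type skin (-1.08 ± 0.18). The rise ended without cpdm replicate 1, cpdm replicate 3 or wild type replicate 1. Schwann cell falls numbered 6 without cpdm replicate 1, 0 with the muscle (median 0.10) and 1 with the hair keratin covariate (median -0.12).

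Among matrix genes the rise of tenascin C was large. Tnc, a glycoprotein that is laid down in wounds, was 10.09, 10.12 and 10.41 in cpdm and 5.38, 5.68 and 5.96 in wild type skin (4.53 ± 0.33, adjusted p = 2.45e-10). Col12a1, a collagen at fibril surfaces, rose by 2.43 ± 0.19 and Postn by 0.63 ± 0.19. With Tnc these were the 3 rises among 27 fibroblast and matrix genes (median -0.28). Of this list 33.3% was called, against 32.6% of all genes. The 6 that fell included the fibroblast surface proteases Fap (-1.80 ± 0.21) and Dpp4 (-1.69 ± 0.17). Collagen Col1a1 was not called (12.30, 12.13 and 12.07 against 12.39, 12.51 and 12.45). A fit of the 6 arrays alone called 14 falls, and with either covariate 5 rose and 2 fell (medians 0.51 with muscle and 0.16 with hair). Of 24 matrix proteases and inhibitors 12 rose and 3 fell (median 0.58). The collagenase Mmp13 was 9.29, 8.11 and 8.65 in cpdm and 4.85, 4.90 and 5.25 in wild type skin (3.68 ± 0.25, adjusted p = 9.06e-11), and the macrophage elastase Mmp12 9.95, 10.47 and 10.15 against 6.53, 6.81 and 6.32 (3.64 ± 0.30). Timp1, an inhibitor of these proteases, rose by 1.93 ± 0.31, and Timp2 fell by 1.03 and Timp3 by 0.53 on the log2 scale. The Timp3 call ended without cpdm replicate 2, cpdm replicate 3 or wild type replicate 2. The muscle covariate left 8 rises and 0 falls (median 0.65), and the hair keratin covariate 11 and 2 (median 0.63).

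Genes of low oxygen and sugar breakdown rose in 13 of 20 and fell in 1 (median 0.52), and in 16 with either covariate (medians 1.11 with muscle and 0.78 with hair). Egln3, an oxygen-sensing hydroxylase induced by hypoxia, was 10.37, 10.30 and 10.43 in cpdm and 8.00, 8.64 and 7.97 in wild type skin (2.16 ± 0.22, adjusted p = 9.86e-08). The glucose transporter Slc2a1 rose by 1.52 ± 0.14, the glycolytic enzyme Pgam1 by 1.41 ± 0.11 and Hif1a, the hypoxia factor, by 1.13 ± 0.12. Aldoa, an aldolase abundant in muscle, was the member that fell (-0.44 ± 0.10).

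Genes that drive vessel growth moved in opposite directions. Of 30 angiogenic factors and receptors, 8 rose and 10 fell (median -0.11, and -0.06 without wild type replicate 2). Vegfa, the main growth factor of endothelium, was 9.01, 8.99 and 9.36 in cpdm and 7.84, 8.03 and 7.85 in wild type skin (1.21 ± 0.21, adjusted p = 7.73e-05). Its relatives Vegfd, Vegfc and Vegfb fell. Vegfd was 7.45, 7.67 and 7.71 against 9.86, 9.01 and 9.42 (-1.82 ± 0.28), and Vegfc and Vegfb differed by -0.57 ± 0.16 and -0.46 ± 0.12, while placental growth factor Pgf, of the same family, was not called (0.35, adjusted p = 0.065). The angiopoietins split as well. Angpt1, which keeps vessels quiet through the receptor Tek, was 4.56, 4.79 and 5.01 in cpdm and 6.08, 6.16 and 5.86 in wild type skin (-1.25 ± 0.21, adjusted p = 5.3e-05), while its opponent Angpt2 was 6.53, 6.37 and 6.56 against 5.91, 6.11 and 6.02 (0.47 ± 0.13, adjusted p = 0.00534). Tek was 6.53, 6.90 and 6.66 against 8.42, 8.14 and 8.41 (-1.63 ± 0.17, adjusted p = 1.47e-07). The arrays did not overlap for Vegfa, Angpt1, Angpt2 or Tek.

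Among other factors Hbegf, an epidermal growth factor of keratinocytes, rose by 2.59 ± 0.25 and Hgf by 0.88 ± 0.22. Adrenomedullin Adm was 6.86, 6.71 and 7.12 in cpdm and 9.10, 8.18 and 8.51 in wild type skin (-1.70 ± 0.25, adjusted p = 1.26e-05). Pdgfc (-1.11 ± 0.22), the apelin receptor Aplnr (-0.91 ± 0.15) and the VEGF co-receptor Nrp1 (-0.78) fell too, and the Nrp1 call ended without cpdm replicate 1, wild type replicate 1 or wild type replicate 3. The tip cell genes Dll4 (-0.24) and Esm1 (0.09) and Fgf2 (-0.37) were not called. Rises numbered 5 without cpdm replicate 1 and 4 without wild type replicate 1. With the muscle covariate 6 rose and 3 fell (median 0.16), and with the hair keratin covariate 6 and 4 (median -0.09).

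Blood endothelial genes were called about as often as all genes. Of 24 genes 1 rose and 6 fell (median -0.27), so 29.2% were called, against 32.6% of all genes. The direction leaned downward. Every cpdm array lay below every wild type array for 16 of the 24 genes, and above for 2. Over all genes these shares were 26.2% and 20.7%. The defining markers Pecam1 (7.85, 7.98 and 8.03 in cpdm against 8.36, 8.18 and 8.27, adjusted p = 0.125) and Cdh5 (7.44, 7.50 and 7.62 against 7.79, 7.73 and 7.75, adjusted p = 0.243) did not overlap between the groups but were not called. Flt1, a VEGF receptor that also acts as a trap, rose from 7.32, 7.38 and 7.09 to 7.93, 7.87 and 7.86 (0.62 ± 0.18, adjusted p = 0.0089), while the signalling receptor Kdr was 7.03, 7.13 and 6.96 against 7.42, 7.78 and 7.48 (-0.52 ± 0.22, adjusted p = 0.0705). The tight junction gene Cldn5 fell by 0.62 on the log2 scale. The balance of the list turned with the covariates: 9 rose and 1 fell with the muscle covariate (median 0.47), and 4 rose and 2 fell with the hair keratin covariate (median 0.19). The fit of the 6 arrays alone, and array weights, each called 13 falls.

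Of 10 lymphatic endothelial genes 0 were called, with Lyve1 at -0.74 (adjusted p = 0.33) and Prox1 at -0.09, and with either covariate 4 of the 10 rose (1 fell with that of muscle; medians 0.91 with muscle and 0.40 with hair, against -0.11). Of 13 pericyte and smooth muscle genes 4 fell, Abcc9, Myh11, Cnn1 and Mylk, by 0.49 to 1.25 on the log2 scale (median of the list -0.18). The share called was 30.8%, against 32.6% of all genes. The Mylk call ended without any 1 array and with centred arrays (adjusted p up to 0.137), and the pericyte marker Rgs5 was not called (0.03); with either covariate 0 of the 13 fell and 2 rose (medians 0.32 with muscle and -0.03 with hair). Of 14 adhesion molecules Vcam1, which holds leukocytes to the vessel wall, rose from 7.13, 6.91 and 6.83 to 7.61, 7.82 and 8.06 (0.87 ± 0.22, adjusted p = 0.00321), as did the leukocyte integrin Itgal (0.73 ± 0.17). Jam2 (-0.99 ± 0.19) and Cd99l2 (-0.47 ± 0.14) fell, 1 fell without cpdm replicate 2, cpdm replicate 3 or wild type replicate 3, and Icam1 (-0.04) and E-selectin Sele (-0.02) were not called. Adhesion molecules were thus called in 28.6%, against 32.6% of all genes. Of 16 inhibitors of angiogenesis 3 rose and 5 fell. Chromogranin A Chga rose by 1.09 ± 0.12, and Angptl1 (-1.36 ± 0.29) and Serpinf1 (-0.87 ± 0.22), which encodes PEDF, fell. Thbs1, thrombospondin, was 10.54, 9.74 and 10.30 against 9.33, 9.20 and 9.36 and did not pass (0.90 ± 0.47, adjusted p = 0.159). Under the muscle covariate, 2 inhibitors rose and 2 fell, and with the hair keratin covariate 3 and 1; the adhesion counts were 3 and 1, and 2 and 1.

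**Figure D5:**
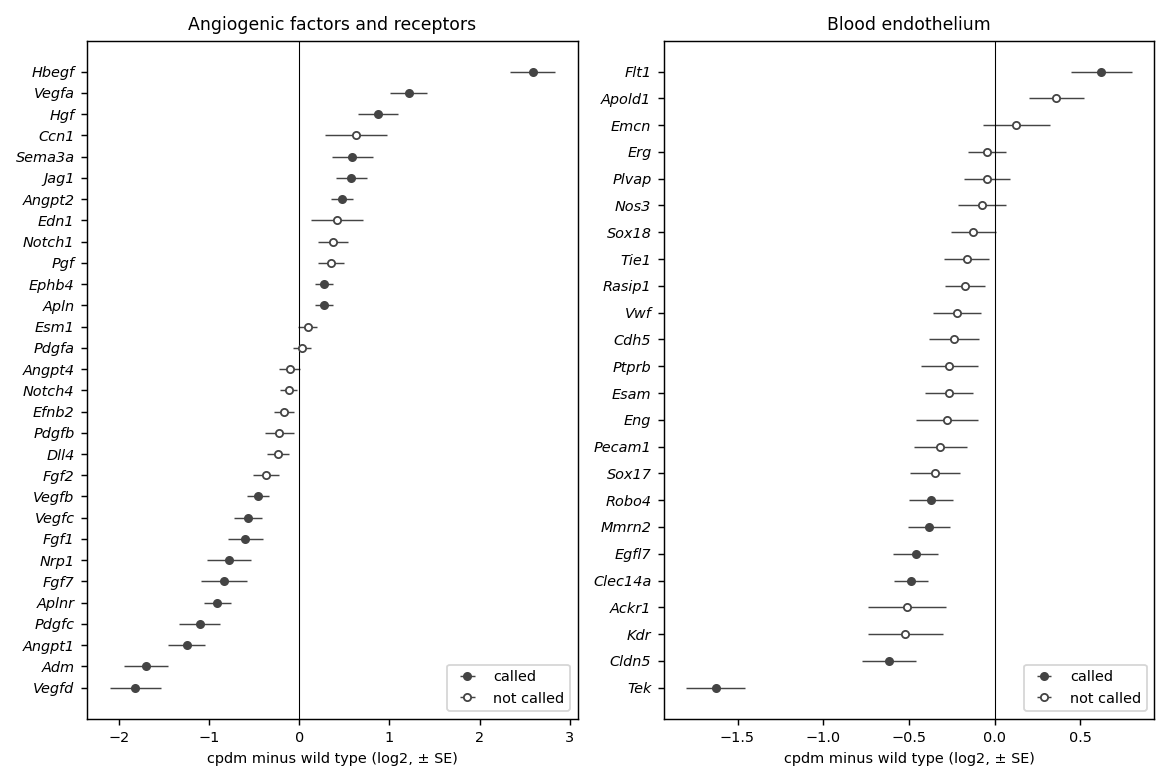
Difference of each gene in log2 signal between the genotypes (cpdm minus wild type) at 10 weeks (horizontal axes), with bars of ± 1 SE, for 30 angiogenic factors and receptors (left) and 24 blood endothelial genes (right). Filled points are called. Vegfa (1.21) lies opposite Vegfd (-1.82) and Angpt1 (-1.25), and Tek (-1.63) is the lowest of the endothelial genes.

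The genotype difference at 10 weeks was set against that at 8 weeks, which uses other arrays. At 8 weeks 3468 genes (17.4%) were called. Of the 6502 called at 10 weeks, 2531 were called in the same direction at 8 weeks, 10 in the opposite direction and 3961 not at all. That a gene passed at 1 age and not at the other does not show that its difference changed. The change itself was called for 53 genes (0.266%), 31 upward and 22 downward, with 3281 at an unadjusted p below 0.05. Left out 1 at a time, single arrays decided this count: it was 0 without cpdm replicate 3 or wild type replicate 1 of 10 weeks, and 0 without cpdm replicate 1, cpdm replicate 3 or wild type replicate 3 of 8 weeks, and it reached 735 without wild type replicate 1 of 8 weeks. Of the genes in the lists, Fscn1 changed upward (1.04) and Cyp2g1 downward (-2.44, adjusted p = 0.0488 for both). For Pamr1, which was not in a list, the difference went from -0.03 at 8 weeks to -1.77 at 10 weeks (change -1.74 ± 0.28, adjusted p = 0.0178). Rpl12, a ribosomal protein, went from -0.10 to 0.95.

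From 6 to 10 weeks the change was called for 1673 genes (8.39%), 761 upward (3.82%) and 912 downward (4.57%), a comparison chosen after the data had been examined. The count ran from 623 without cpdm replicate 2 of 6 weeks to 2836 without wild type replicate 2 of 6 weeks, and was 503 with the replicate number as a block. Of 28 keratinocyte stress genes 11 changed upward and Gsdmc2 downward. The 11 became 7 when any of 5 arrays was left out (at 10 weeks wild type replicate 1 and cpdm replicates 1 and 3, at 6 weeks cpdm replicate 2 and wild type replicate 3), 16 without wild type replicate 2 of 6 weeks, 2 with the muscle and 1 with the hair keratin covariate. The Gsdmc2 call ended without cpdm replicate 2 of 6 weeks, with the block and with either covariate. S100a9 went from a difference of 3.0 at 6 weeks to 4.50 at 10 weeks. Skeletal muscle genes changed downward in 17 of 30. That count was 11 without cpdm replicate 1 of 10 weeks, 24 without wild type replicate 2 of 6 weeks, 10 with the replicate number as a block, 1 with the muscle and 0 with the hair keratin covariate. Myh4 went from -0.92 to -3.88 (change -2.96 ± 0.47, adjusted p = 0.00141). Among matrix genes Tnc went from 2.10 to 4.53 (change 2.44 ± 0.45) and Col12a1 from 0.49 to 2.43 (change 1.93 ± 0.26, adjusted p = 0.000536). Elsewhere the suprabasal keratin Krt77 went from 0.29 to -1.50 and Flg2 from 0.13 to -1.47. In the type 2 list 7 of 27 changed downward, among them Ccl24, from 1.40 to -0.85, and Ccl11, from 0.65 to -0.97. The 7 ran from 5 to 8 without any 1 array and was 0 with either covariate. Tek went from -0.49 to -1.63 (change -1.14 ± 0.24, adjusted p = 0.00672). After the muscle adjustment, 60 genes changed and with the hair keratin covariate 43; the muscle and hair signals moved between 6 and 10 weeks too, and their part was not tested.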

How the data were processed

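Whole skin RNA was measured on single-colour Affymetrix arrays. The labels' protocols name oligo(dT) priming with a 3' kit, while the probe set identifiers look like those of a whole-transcript array, so the labelling used is not settled. The authors deposited log2 values, made with RMA in Affymetrix Expression Console 1.2 per the submitters' processing notes; whether all arrays were normalized together is not stated. Of 35556 probe sets 21789 name a single gene in the platform annotation, 1621 name several and 12146 none. The probe set with the highest mean over all 31 arrays stood for each of 19938 genes. Near-identical copies (Sprr2, Krtap, Stfa, Cd209, Skint, Lyz1 and Lyz2) may share signal, which was not tested.

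limma 3.58.1 in R 4.3.3 fitted a mean for each of 10 groups of genotype and age (21 residual degrees of freedom), with two-sided moderated tests and Benjamini-Hochberg adjustment over all genes. The code was tested on simulated data. With 3 arrays against 3, their number limits the precision. Genes were named by rule: the 15 largest rises and 15 largest falls among called genes without overlap between the groups, leaving out clones and gene models, the 5 members of lowest p in each list, all members where a list is described in full, and the 10 genes of lowest p in each direction for the change from 8 to 10 weeks. Others were named after their values were seen. The comparison, the 39 gene lists (844 measured members of 918) and the tests were chosen with earlier results of these data known. Alternatives changed the arrays fitted, the probe set rule, the dim signals kept, the spread, the normalization, the covariates and the thresholds. The replicate numbers were not shown to pair the mice. Deviations of same-numbered cpdm and wild type arrays correlated at -0.094, -0.036 and 0.055 at 10 weeks, and at 0.25, -0.47 and -0.56 at 8 weeks. So few arrays cannot show that the mice were unpaired.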

Additional observations from a re-analysis of the deposited data

Results flagged for a closer look

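The difference between cpdm and wild type skin was itself tested for a change with age, and it changed for 53 genes from 8 to 10 weeks and for 1673 from 6 to 10 weeks (limma, Benjamini-Hochberg). The 10 genes of lowest p that changed upward from 8 to 10 weeks were Epb41l4a (0.95), Ncs1 (0.91), the kinase Mast4 (0.62), Pprc1 (1.0), the proteasome subunit Psmd3 (0.65), Wdr75 (0.80), the actin regulator Enah (0.92), the ribosomal protein Rpl12 (1.05), the nuclear receptor Ppard (0.58) and Snx16 (0.60), all on the log2 scale. Those that changed downward were the phospholipase Pla2g2d (-1.29), Pamr1 (-1.74), Aph1c (-0.91), Kctd12b (-0.93), Hscb (-0.58), the selenium carrier Selenop (-1.30), Stmn2 (-1.20), Cyp2ab1 (-1.54), Snx29 (-0.52) and Spdye4b (-0.73). Adjusted p-values of these 20 ran from 0.0175 to 0.0374.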

How the results depend on the processing

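The alternatives tried for single genes, which leave out the covariates and the stricter thresholds, kept the direction of the 459 called genes among the 833 that are named or in a list, and 359 of these kept their call under each of them, including the loss of any 1 array of 10 weeks. Leaving out 1 array gave 5290 to 5844 called genes, 2299 to 2821 higher and 2915 to 3056 lower, and 366 to 411 of the 430 called genes in the lists. The muscle covariate left 2051 genes (1286 higher, 765 lower; 252 in the lists) and the hair keratin covariate, chosen after seeing the data, 3407 (1794 and 1613). A 2-fold minimum left 1239 (598 and 641; 256 in the lists), and an adjusted p below 0.01 left 2367 lower. The replicate block gave 5741 (2510 and 3231), and 22 of the 459 calls were lost. The change from 8 to 10 weeks (53 genes) was called for 0 in a fit of only the arrays compared, 87 without the dimmest 40% of genes, 387 with array weights, 12 after repeated quantile normalization, 3 with the replicate block, 2 with the muscle and 3 with the hair keratin covariate, 0 at an adjusted p below 0.01 and 14 with the 2-fold minimum. It was called for 0 to 735 when 1 array was left out. The change from 6 to 10 weeks (1673 genes, chosen after seeing the data) was called for 4493 with array weights, 503 with the replicate block, 60 with the muscle and 43 with the hair keratin covariate, 267 at an adjusted p below 0.01, 624 with the 2-fold minimum and 623 to 2836 when 1 array was left out. The causes were not tested, apart from the stricter thresholds. The labels' numbers were not shown to pair the mice. The number of arrays, 3 and 3, limits what small differences can be called.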
